A study of Homo sapiens with 24 samples.

Results

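The 43 genes described here belong to the integrated stress response led by the transcription factor ATF4 and to the supply of amino acids that it controls. Members were the probes whose RefSeq transcript is assigned to 1 of these 43 symbols, out of 24817 symbols with a probe on the array. They comprise 16 stress factors, 10 enzymes of serine, one-carbon and amino acid metabolism, 9 amino acid transporters, and 8 genes of tRNA charging and tRNA export. Gene expression was measured in U251 cells, an established human glioblastoma line, with 1-colour Agilent microarrays. Cells had been kept in steroid-stripped medium before exposure to G-1, a small-molecule agonist of the G protein-coupled estrogen receptor GPER. The 6 groups of 4 independent replicates were DMSO, the IC50 of G-1, and G-1 at 1 µM, each for 24 h and for 72 h, where IC50 is the half-inhibitory dose of the cells and DMSO is the vehicle, at 0.1% in the labels and at a lower concentration in the study's methods. All groups are of 1 cell line, and the labels name no genetic modification of any group.

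In the integrated stress response, kinases that sense a lack of amino acids, misfolded proteins in the endoplasmic reticulum, heme loss or double-stranded RNA phosphorylate the translation factor eIF2. General protein synthesis then slows, while the *ATF4* message is translated better. The ATF4 protein pairs with other bZIP proteins such as those of the C/EBP family, binds composite elements in DNA, and raises genes that import amino acids, make serine, glycine and asparagine, charge tRNAs, or restore translation. ATF4 activity has also been described in tumour cells, where it feeds growth through amino acid supply.

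The composite element to which ATF4 and C/EBP proteins bind together is commonly written TGATGNAA. It was searched on both strands in the RefSeq promoters of the GRCh38.p14 build, each from 250 bases before to 50 bases after a start of transcription. Of the 43 members, 35 had an entry, with 55 windows in all. The element was present in 13 of these 55 windows (23.6%), 1 for each of 13 members, and in 1270 of all 35116 promoters (3.62%). By class, 4 of 23 windows of stress factors, 1 of 10 of enzymes, 4 of 12 of transporters and 4 of 10 of tRNA genes held it. The members were listed as genes of the ATF4 response, and the share was not tested. In lists described below, 3 of 12 windows of other cytosolic tRNA synthetases and 5 of 30 of other serine, folate, proline and aspartate enzymes held it. For mitochondrial synthetases it was 1 of 18 windows, and for other amino acid carriers 2 of 33. The 250 bases before the start are shown for 5 of the 13 members with a match. They were chosen, after the values were seen, because they hold the same element while their messages differed in direction. By the brightest probe of each gene, 3 of the messages were higher and 2 were lower after 72 h of G-1 1 µM. A second *ASNS* probe went the other way, and the call of *AARS1* was lost without certain single arrays, as given below. Each runs 5′ to 3′ on the strand of its gene, and the capitals mark the match. The sequences lie at chr15:40953221-40953470 (*CHAC1*, plus strand), chr7:97872409-97872658 (*ASNS*, minus strand), chr7:30594628-30594877 (*GARS1*, plus strand), chr19:33373863-33374112 (*CEBPG*, plus strand) and chr16:70289507-70289756 (*AARS1*, minus strand).
CHAC1: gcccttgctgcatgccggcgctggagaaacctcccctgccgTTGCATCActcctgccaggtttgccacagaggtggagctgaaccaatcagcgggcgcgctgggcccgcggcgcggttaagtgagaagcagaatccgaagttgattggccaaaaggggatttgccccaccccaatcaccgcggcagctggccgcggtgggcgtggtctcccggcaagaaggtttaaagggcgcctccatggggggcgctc
ASNS: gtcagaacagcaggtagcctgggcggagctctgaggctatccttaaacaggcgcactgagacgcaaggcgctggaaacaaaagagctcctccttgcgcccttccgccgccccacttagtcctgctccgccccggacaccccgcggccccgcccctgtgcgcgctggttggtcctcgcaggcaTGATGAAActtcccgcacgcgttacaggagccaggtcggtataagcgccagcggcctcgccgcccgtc
GARS1: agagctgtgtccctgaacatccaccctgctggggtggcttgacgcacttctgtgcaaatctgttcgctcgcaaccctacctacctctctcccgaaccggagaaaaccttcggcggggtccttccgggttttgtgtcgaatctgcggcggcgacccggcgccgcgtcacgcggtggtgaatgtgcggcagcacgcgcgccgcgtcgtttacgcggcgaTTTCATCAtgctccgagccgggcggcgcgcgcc
CEBPG: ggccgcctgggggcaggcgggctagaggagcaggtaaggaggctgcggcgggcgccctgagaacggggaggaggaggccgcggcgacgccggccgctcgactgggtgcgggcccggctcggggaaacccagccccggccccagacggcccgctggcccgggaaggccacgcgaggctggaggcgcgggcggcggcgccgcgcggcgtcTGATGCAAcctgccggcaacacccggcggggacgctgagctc
AARS1: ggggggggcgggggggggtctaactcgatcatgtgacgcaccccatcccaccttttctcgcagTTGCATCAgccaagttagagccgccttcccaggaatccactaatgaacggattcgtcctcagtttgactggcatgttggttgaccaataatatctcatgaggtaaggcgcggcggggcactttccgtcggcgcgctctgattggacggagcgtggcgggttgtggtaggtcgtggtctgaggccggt
In *CHAC1*, *GARS1* and *AARS1* the match reads on the strand opposite to the gene. A match of these letters is a description of the window and does not show a bound site.

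Each array gave a signal per probe, written here as log2 signal after subtraction of the 75th percentile of that array. A log2 difference of 1 is a 2-fold change. The 3 slides of 8 arrays were scanned in 2 sessions. Slides 1 and 2, of the first session, held the DMSO and G-1 IC50 arrays, and slide 3, of the second session, held all 8 G-1 1 µM arrays. Therefore, in comparisons of G-1 1 µM with DMSO or G-1 IC50, the dose cannot be told apart from the slide and session. The comparison of 72 h with 24 h at G-1 1 µM lies within slide 3, and an offset of slide 3 from the other slides cancels in the interaction of dose with duration. An offset between slides 1 and 2 does not cancel there, since they held 3 and 1 of the DMSO 24 h arrays and 2 each of the DMSO 72 h arrays. In the labels of G-1 1 µM 72 h and of the G-1 IC50 arrays of 24 h, the duration entry names the other duration, and the sample titles were used. All 7 markers of the U251 line (*VIM*, *NES*, *CD44*, *SOX2*, *GFAP*, *S100B* and *EGFR*) were well above background on all 24 arrays. In this bulk RNA, fewer cells of a type and less RNA per cell cannot be told apart.

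All 43 members had a probe. For 39 of them a probe passed the background in all 4 replicates of some group, and these were tested. Their brightest probes were well above background on all 24 arrays. The remaining 4 had no test. *SLC7A3*, a carrier of cationic amino acids, and *FGF21*, a secreted stress hormone, were not well above background on any array. *ALDH1L2*, a mitochondrial folate enzyme, was well above background on 3 arrays of each DMSO group, 3 of G-1 IC50 24 h, 1 of G-1 IC50 72 h, 0 of G-1 1 µM 24 h and 1 of G-1 1 µM 72 h. *STC2*, a secreted glycoprotein of the stress response, was so on 2 arrays of G-1 1 µM 72 h and on 1 G-1 IC50 array of 24 h. Spots well above background were fewer on every G-1 1 µM array than on any array of the other groups. Members are represented by their brightest probe, levels are compared between groups and not between genes, and adjusted p values are from limma with Benjamini-Hochberg adjustment over all 22970 tested probes.

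After 24 h of G-1 IC50, 3 of the 39 tested members were higher than in DMSO and 0 were lower. Of all 14235 tested genes, 0.204% were called higher in this comparison and 0.0281% lower, 0.232% in all. The 3 members were the transporters *SLC7A5* and *SLC6A9* and the serine enzyme *PSAT1*. The log2 difference was above 0 for 36 of 39 members, with a median of 0.22 against -0.020 for all genes. In 10 members (25.6%) the 4 G-1 IC50 arrays did not overlap the 4 DMSO arrays, 9 of them higher and 1 lower, against 2.84% of all genes (1.46% higher and 1.38% lower).

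*SLC7A5* is a subunit of a carrier that brings leucine and other large neutral amino acids into the cell. Its log2 signals were 1.49, 1.87, 1.62 and 1.34 in DMSO 24 h and 2.80, 2.57, 2.82 and 2.27 in G-1 IC50 24 h. The groups did not overlap, and the log2 difference was 1.03 ± 0.17 (SE, n = 4 against 4, limma adjusted p = 0.00617). *SLC6A9*, the glycine carrier GLYT1, gave 0.33, 0.44, 0.47 and 0.58 in DMSO 24 h and 0.97, 1.14, 1.18 and 0.95 in G-1 IC50 24 h, again without overlap, and differed by 0.60 ± 0.10 (adjusted p = 0.00781). *PSAT1*, the transaminase of the serine pathway, gave 2.86, 2.93, 2.72 and 2.57 against 3.13, 3.50, 3.36 and 3.27, and differed by 0.55 ± 0.09 (adjusted p = 0.00432). All 3 stayed called when any single array was left out, while without the filter on dim probes the call of *SLC6A9* was lost (adjusted p = 0.054). With slide as a block, their differences were 1.02, 0.62 and 0.57. Within slide 1, which held 3 DMSO and 2 G-1 IC50 arrays, they were 1.21, 0.70 and 0.71. Within slide 2, which held 1 and 2, they were 0.66, 0.53 and 0.27, and no member was called in either slide alone or when only these 8 arrays were fitted.

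The next largest differences after 24 h of G-1 IC50 were not called. *CHAC1*, a glutathione-degrading enzyme, differed by 0.53 ± 0.18 (adjusted p = 0.62). *CBS*, which joins homocysteine and serine into cystathionine, differed by 0.52 ± 0.13 (adjusted p = 0.24). The glutamine carrier *SLC1A5* differed by 0.41 ± 0.10 (adjusted p = 0.176). With slide as a block *CBS* was called, and with the replicate number as a block *SLC1A5*. *ATF4* itself was measured at 6.91, 6.79, 6.86 and 6.82 in DMSO 24 h and 6.98, 7.22, 7.26 and 6.93 in G-1 IC50 24 h. The groups did not overlap, but its difference of 0.25 ± 0.08 was not called (adjusted p = 0.568).

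After 72 h of G-1 IC50, none of the 39 members was called, against 0.892% of all genes. At an unadjusted p under 0.05, 5 of 39 members and 9.60% of all genes passed, and 0 members passed the methods' t-test with a 2-fold change. The median log2 difference of the members was 0.016, with 21 of 39 above 0. In 7 members (17.9%) the groups did not overlap, against 7.75% of all genes. Of these, *ATF3*, *GARS1*, *PSPH*, *SLC3A2* and *SLC7A11* were higher, and *AARS1* and *GDF15* were lower. *SLC7A5* had the largest difference, 0.55 ± 0.17 (adjusted p = 0.213). The cystine carrier *SLC7A11* gave 4.34, 4.48, 4.49 and 4.41 in DMSO 72 h and 4.66, 4.67, 4.73 and 4.90 in G-1 IC50 72 h, and its difference of 0.31 ± 0.07 had the lowest adjusted p (0.0573). *ATF4* was at 6.82, 6.91, 6.82 and 7.08 in DMSO and 6.83, 6.75, 6.73 and 6.80 in G-1 IC50, a difference of -0.13 ± 0.08 (adjusted p = 0.702). No member had a called interaction of G-1 IC50 with duration, against 0.0140% of all genes, and 9 of 39 members passed at an unadjusted p under 0.05, against 4.24% of all genes. The interaction with the lowest adjusted p was that of *SLC6A9*, -0.68 ± 0.15 (adjusted p = 0.169).

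**Figure D1:**
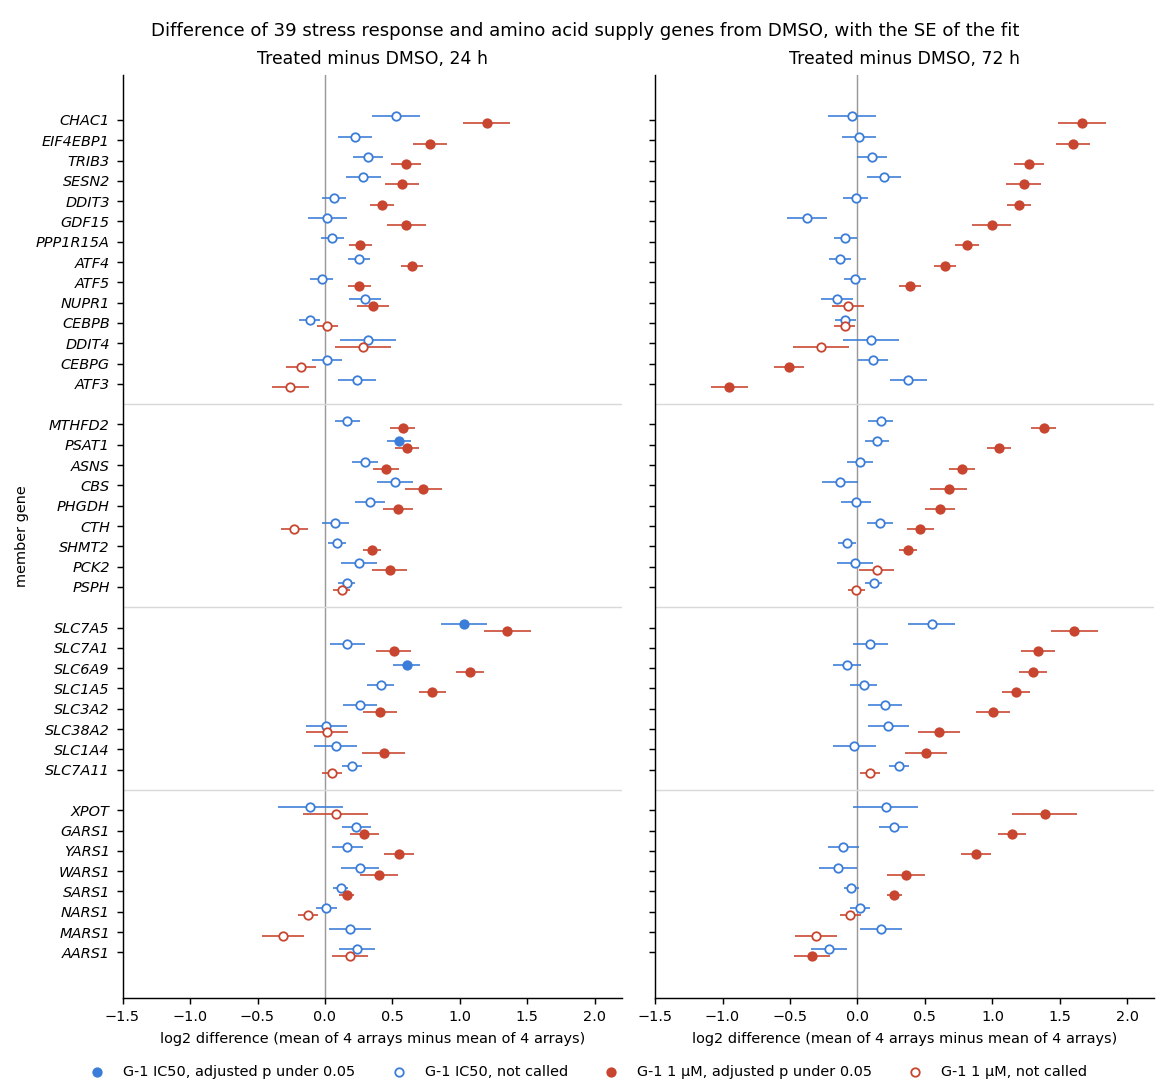
Log2 differences of the 39 tested members from DMSO (x axis) at 24 h (left) and 72 h (right), with SE bars of the limma fit, for G-1 IC50 (blue) and G-1 1 µM (red), in the order of stress factors, enzymes, transporters and tRNA genes. Filled points passed an adjusted p of 0.05; most filled points are of G-1 1 µM, and 14 members passed 2-fold at 72 h.

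With 24 h of G-1 1 µM, 27 of the 39 members were higher than in DMSO and 0 were lower. Of all genes, 17.2% were called higher and 12.0% lower. The 27 were 10 of 14 stress factors, 7 of 9 enzymes, 6 of 8 transporters and 4 of 8 tRNA genes. The median log2 difference of the members was 0.41, against 0.016 for all genes. Only *SLC7A5*, *CHAC1* and *SLC6A9* passed a 2-fold change as well (7.69% of members, 0.471% of all genes). With 72 h, 28 members were higher and 3 were lower, against 32.7% and 32.9% of all genes. The median difference was 0.65, against -0.010 for all genes, and 14 members (35.9%) were more than 2-fold higher, against 4.55% of all genes. By class, 9 of 14 stress factors, 7 of 9 enzymes, 7 of 8 transporters and 5 of 8 tRNA genes were higher. Their median log2 differences were 0.73, 0.61, 1.09 and 0.32. Of the members, 25 were higher at both durations and 6 were called at neither. *PCK2* and *NUPR1* were called higher at 24 h alone, *SLC38A2*, *CTH* and *XPOT* were called higher at 72 h alone, and *ATF3*, *CEBPG* and *AARS1* were called lower at 72 h alone.

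**Figure D2:**
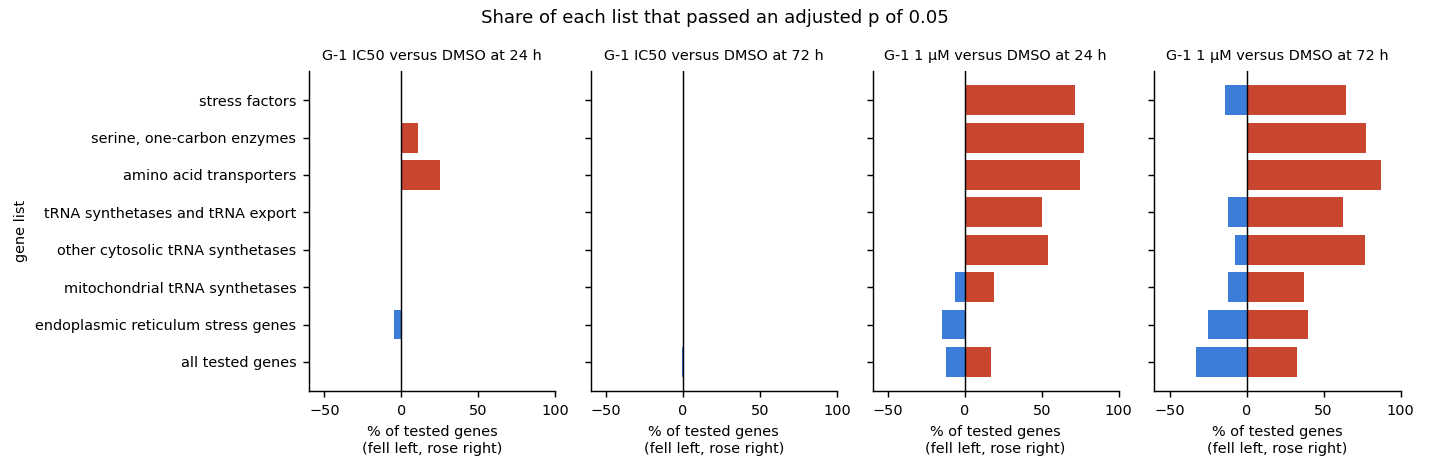
Share of the tested genes of each list that rose (red, right) or fell (blue, left) at an adjusted p of 0.05 in the 4 comparisons with DMSO (x axis, percent), beside all 14235 tested genes. At G-1 1 µM the share that rose is above that of all genes in each of the 4 member classes, at both durations. The members and lists were chosen with earlier results of these data known, and the shares were not tested.

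The first class is the stress factors, transcription factors of the response and genes that they raise. *ATF4* was measured at 7.62, 7.44, 7.55 and 7.35 in G-1 1 µM 24 h and 7.66, 7.57, 7.45 and 7.55 in G-1 1 µM 72 h. All 8 arrays lay above every DMSO array. The log2 difference from DMSO was 0.64 ± 0.08 at 24 h (adjusted p = 2.77e-05) and 0.65 ± 0.08 at 72 h (adjusted p = 7.12e-07), and the interaction with duration was 0.0043 ± 0.11 (adjusted p = 0.983). *ATF5*, a related factor, differed by 0.25 ± 0.08 (adjusted p = 0.0268) and 0.39 ± 0.08 (adjusted p = 0.000382). Its call at 24 h was lost without DMSO replicate 1 or without G-1 1 µM replicate 1 or 3, where the difference ran from 0.20 to 0.30 over all left-out arrays.

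*CHAC1* had the largest difference among the members at 72 h. Its log2 signals were 0.89, 1.13, 1.34 and 1.46 in DMSO 24 h and 2.22, 2.11, 2.81 and 2.46 in G-1 1 µM 24 h, then 0.82, 0.82, 1.03 and 1.16 in DMSO 72 h and 2.43, 2.96, 2.64 and 2.46 in G-1 1 µM 72 h. The arrays did not overlap at either duration, and the difference was 1.20 ± 0.18 (adjusted p = 0.000113) at 24 h and 1.66 ± 0.18 (adjusted p = 7.79e-08) at 72 h. A second probe of *CHAC1*, well above background on 21 arrays, gave 1.28 and 1.62. *TRIB3*, a pseudokinase that feeds back on ATF4, gave 4.75, 4.53, 4.75 and 4.71 in DMSO 24 h and 5.20, 5.16, 5.54 and 5.23 in G-1 1 µM 24 h. At 72 h it gave 4.43, 4.62, 4.46 and 4.70 against 5.87, 6.0, 5.79 and 5.64. All treated arrays were above all control arrays, by 0.60 ± 0.11 on average at 24 h (adjusted p = 0.000736) and 1.27 ± 0.11 at 72 h (adjusted p = 5.53e-09).

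*DDIT3*, the factor CHOP that is tied to death under prolonged stress, was higher at both durations. It gave 2.04, 1.97, 2.07 and 2.13 in DMSO 24 h, 2.35, 2.5, 2.67 and 2.37 in G-1 1 µM 24 h, 1.94, 2.06, 1.93 and 2.18 in DMSO 72 h and 3.24, 3.36, 3.18 and 3.1 in G-1 1 µM 72 h. The differences were 0.42 ± 0.09 (adjusted p = 0.00192) and 1.20 ± 0.09 (adjusted p = 6.12e-10). *SESN2*, an inhibitor of mTORC1 signalling under leucine loss, differed by 0.57 ± 0.13 and 1.23 ± 0.13. *EIF4EBP1*, which holds back cap-dependent translation, differed by 0.78 ± 0.13 and 1.59 ± 0.13, the second largest difference of this class at 72 h. *PPP1R15A* (GADD34), which brings a phosphatase to eIF2, differed by 0.26 ± 0.09 and 0.81 ± 0.09. The adjusted p at 72 h was 5.68e-08 for *SESN2*, 1.39e-09 for *EIF4EBP1* and 8.01e-08 for *PPP1R15A*. At 24 h the call of *PPP1R15A* was lost without DMSO replicate 1 or 2 or G-1 1 µM replicate 1 or 3, with differences from 0.22 to 0.30 over all left-out arrays.

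*GDF15*, a secreted stress cytokine, changed with time in the vehicle as well. It gave 5.04, 4.85, 4.58 and 5.33 in DMSO 24 h, 5.48, 5.55, 5.68 and 5.50 in G-1 1 µM 24 h, 5.71, 5.80, 5.96 and 6.31 in DMSO 72 h and 7.02, 7.16, 6.84 and 6.74 in G-1 1 µM 72 h. It was the only member called between DMSO 72 h and DMSO 24 h, higher by 0.99 ± 0.15 (adjusted p = 0.000894), where 3.51% of all genes were called. Without DMSO 72 h replicate 4, *ASNS* and *CTH* were called there too, and without DMSO 24 h replicate 4, *GARS1*. Over DMSO of the same duration, *GDF15* was higher by 0.60 ± 0.15 at 24 h (adjusted p = 0.00474) and 0.99 ± 0.15 at 72 h (adjusted p = 5.71e-06) with G-1 1 µM.

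*ATF3* and *CEBPG* moved the other way. *ATF3*, a stress-induced factor that often represses, gave 4.63, 4.81, 4.49 and 4.80 in DMSO 72 h, 4.96, 5.25, 4.88 and 5.13 in G-1 IC50 72 h and 3.67, 3.76, 3.77 and 3.72 in G-1 1 µM 72 h. The latter 4 were below all others, and the difference from DMSO was -0.95 ± 0.14 (1.93-fold lower, adjusted p = 5.34e-06), while at 24 h it was -0.26 ± 0.14 (adjusted p = 0.167). Its other 3 probes gave differences from -0.92 to -0.76 at 72 h. *CEBPG*, a C/EBP partner of ATF4, gave 4.28, 4.31, 4.22 and 4.48 in DMSO 72 h and 3.81, 3.74, 3.83 and 3.87 in G-1 1 µM 72 h, a difference of -0.51 ± 0.11 (adjusted p = 0.000479). *CEBPB*, another C/EBP factor, was called at neither duration and differed by 0.017 ± 0.08 and -0.09 ± 0.08. *DDIT4* (REDD1), a brake on mTORC1, differed by 0.28 ± 0.21 (adjusted p = 0.319) and -0.27 ± 0.21 (adjusted p = 0.26). In *DDIT4*, replicates 1 and 2 of all 72 h groups were above replicates 3 and 4. *NUPR1*, a small chromatin protein of the stress response, differed by 0.36 ± 0.12 at 24 h (adjusted p = 0.0312) and -0.07 ± 0.12 at 72 h (adjusted p = 0.633). Its call at 24 h was lost without DMSO replicate 1, 2 or 3 or G-1 1 µM replicate 3 or 4, with differences from 0.29 to 0.42.

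**Figure D3:**
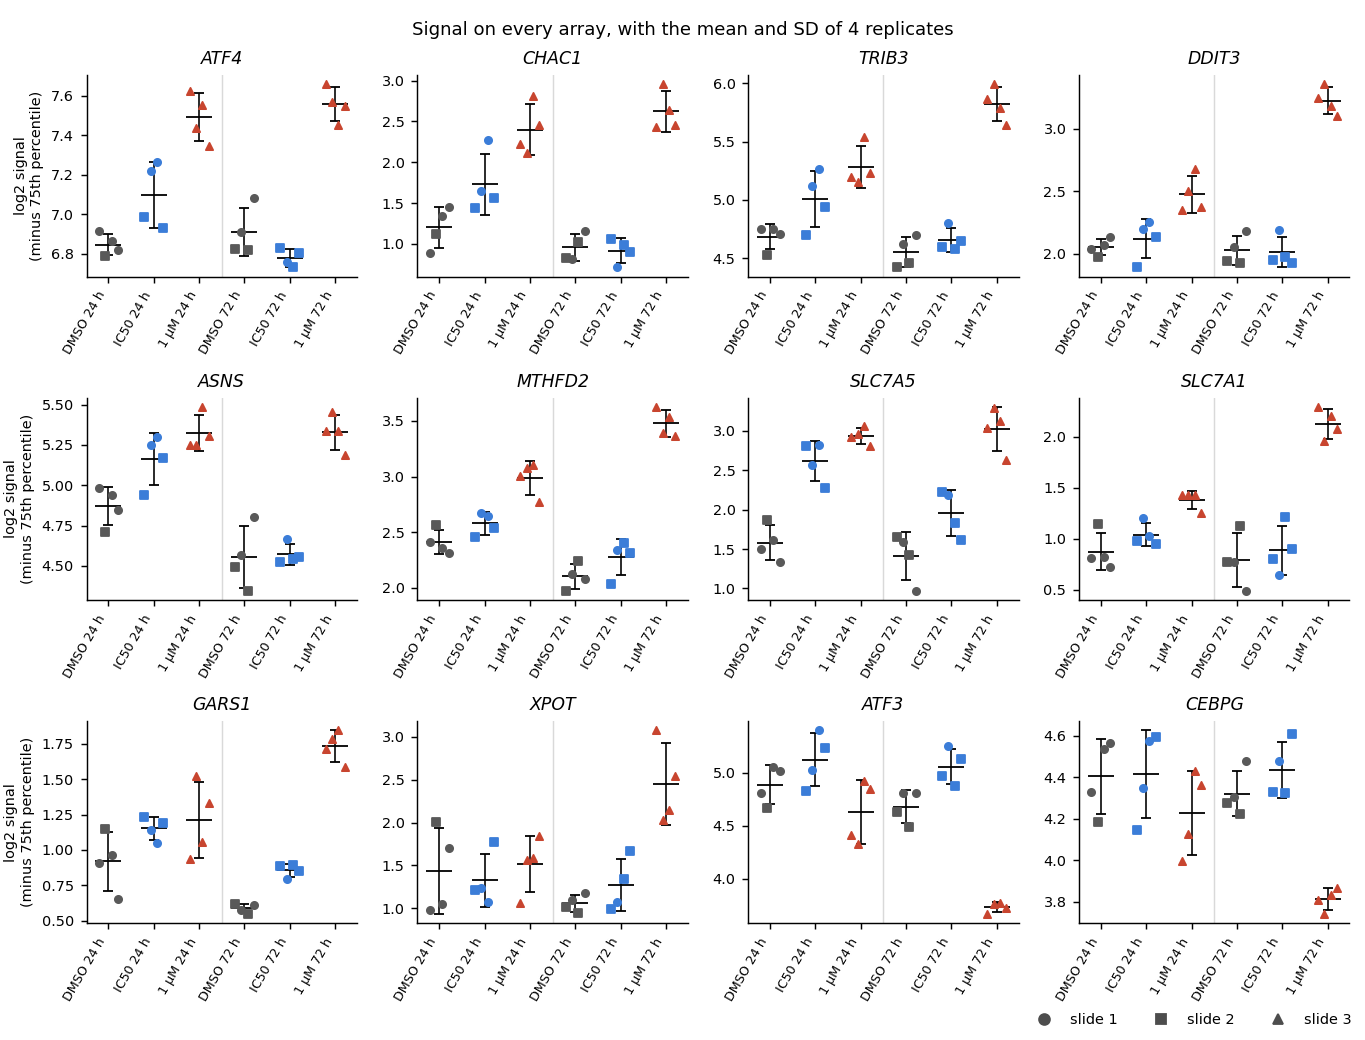
Log2 signal (y axis, minus the 75th percentile of the array) on each of the 24 arrays for 12 members, with the mean and SD of 4 replicates in black and the slide shown by the symbol. All G-1 1 µM arrays (red triangles) are on slide 3; for ATF4 all 8 lie above the DMSO arrays, and for ATF3 and CEBPG the 4 of 72 h lie below all others.

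Among the enzymes, the mitochondrial folate enzyme *MTHFD2* had the largest difference. It gave 2.41, 2.56, 2.36 and 2.31 in DMSO 24 h, 3.01, 3.07, 3.11 and 2.77 in G-1 1 µM 24 h, 1.97, 2.12, 2.24 and 2.08 in DMSO 72 h and 3.63, 3.40, 3.53 and 3.37 in G-1 1 µM 72 h. Treated and control arrays did not overlap, with differences of 0.58 ± 0.09 (adjusted p = 0.000228) and 1.38 ± 0.09 (adjusted p = 1.36e-10). The serine pathway has 3 members, *PHGDH*, *PSAT1* and *PSPH*, in the order of their reactions. *PHGDH*, which commits a glycolytic intermediate to serine, differed by 0.54 ± 0.11 (adjusted p = 0.00151) and 0.61 ± 0.11 (adjusted p = 7.37e-05). *PSAT1* gave 3.31, 3.40, 3.49 and 3.32 in G-1 1 µM 24 h, 2.38, 2.64, 2.54 and 2.59 in DMSO 72 h and 3.65, 3.65, 3.6 and 3.44 in G-1 1 µM 72 h. Its differences were 0.61 ± 0.09 (adjusted p = 9.76e-05) and 1.05 ± 0.09 (adjusted p = 3.26e-09). *PSPH*, the last enzyme, lay between 3.81 and 4.20 on all 24 arrays and was called at neither duration (0.13 ± 0.06 and -0.0096 ± 0.06). *SHMT2*, which splits serine into glycine and a one-carbon unit in mitochondria, differed by 0.35 ± 0.07 (adjusted p = 0.000849) and 0.38 ± 0.07 (adjusted p = 5.54e-05).

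*ASNS*, which makes asparagine, is a classical ATF4 target with the promoter element shown above. It gave 4.98, 4.71, 4.94 and 4.85 in DMSO 24 h, 5.25, 5.25, 5.49 and 5.30 in G-1 1 µM 24 h, 4.49, 4.57, 4.35 and 4.80 in DMSO 72 h and 5.34, 5.45, 5.33 and 5.19 in G-1 1 µM 72 h. The differences were 0.45 ± 0.10 (adjusted p = 0.00181) and 0.77 ± 0.10 (adjusted p = 5.94e-07). A second detected probe, assigned to another transcript of *ASNS*, gave 0.13 (adjusted p = 0.531) and -0.50 (adjusted p = 0.00672), so that the probes of this gene disagree in direction at 72 h. *CBS* differed by 0.73 ± 0.13 (adjusted p = 0.000704) and 0.68 ± 0.13 (adjusted p = 0.000199); its probe may also read the nearly identical copy *CBSL*. *CTH*, which releases cysteine from cystathionine, gave 1.09, 1.00, 1.08 and 1.23 in DMSO 24 h, 0.75, 0.79, 1.12 and 0.84 in G-1 1 µM 24 h, 0.77, 0.82, 0.53 and 0.97 in DMSO 72 h and 1.30, 1.30, 1.12 and 1.23 in G-1 1 µM 72 h. The treated arrays overlapped the controls at 24 h (-0.23 ± 0.10, adjusted p = 0.087) and lay above them at 72 h (0.47 ± 0.10, adjusted p = 0.00033). *PCK2*, the mitochondrial enzyme that makes phosphoenolpyruvate, differed by 0.48 ± 0.13 (adjusted p = 0.0106) and 0.14 ± 0.13 (adjusted p = 0.353).

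The transporters had the highest median difference of the 4 classes at 72 h, a comparison of medians that was not tested. *SLC7A5* gave 2.92, 2.95, 3.05 and 2.81 in G-1 1 µM 24 h, 1.65, 1.59, 1.42 and 0.97 in DMSO 72 h, 2.22, 2.18, 1.82 and 1.61 in G-1 IC50 72 h and 3.03, 3.28, 3.13 and 2.63 in G-1 1 µM 72 h. Its differences from DMSO were 1.35 ± 0.17 (2.55-fold, adjusted p = 3.25e-05) and 1.61 ± 0.17 (3.05-fold, adjusted p = 9.08e-08). *SLC3A2*, the heavy chain that joins *SLC7A5* or *SLC7A11* at the membrane, differed by 0.41 ± 0.13 (adjusted p = 0.0194) and 1.01 ± 0.13 (adjusted p = 7.4e-07). Its call at 24 h was lost without DMSO replicate 1 or 2 or G-1 1 µM replicate 3, with differences from 0.32 to 0.48. *SLC7A11*, the partner that takes up cystine, was called at neither duration (0.05 ± 0.07 and 0.10 ± 0.07). At 72 h it was lower in G-1 1 µM than in G-1 IC50, with a difference of -0.21 ± 0.07 (adjusted p = 0.0164).

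*SLC7A1*, a carrier of arginine and lysine, gave 0.81, 1.14, 0.82 and 0.72 in DMSO 24 h, 1.42, 1.42, 1.43 and 1.25 in G-1 1 µM 24 h, 0.77, 0.77, 1.13 and 0.49 in DMSO 72 h and 2.29, 1.95, 2.2 and 2.07 in G-1 1 µM 72 h. The differences were 0.51 ± 0.13 (adjusted p = 0.00597) and 1.34 ± 0.13 (adjusted p = 1.73e-08), without overlap. *SLC6A9* differed by 1.07 ± 0.10 (adjusted p = 2e-06) and 1.30 ± 0.10 (adjusted p = 1.35e-09); its second probe, well above background on 12 arrays, gave 0.70 and 0.65, both uncalled. *SLC1A5* differed by 0.80 ± 0.10 (adjusted p = 3.45e-05) and 1.17 ± 0.10 (adjusted p = 4.96e-09), and its 4 arrays of each treated group lay above the controls. *SLC1A4*, a carrier of alanine, serine and cysteine, differed by 0.44 ± 0.16 (adjusted p = 0.0443) and 0.51 ± 0.16 (adjusted p = 0.00818). Its call at 24 h was lost without any 1 of DMSO replicates 2, 3 and 4 and G-1 1 µM replicates 1, 2 and 3, with differences from 0.40 to 0.50. *SLC38A2*, the adaptive carrier SNAT2, differed by 0.015 ± 0.15 (adjusted p = 0.952) and 0.60 ± 0.15 (adjusted p = 0.00181). Its second probe gave 0.55 (adjusted p = 0.000762) and 0.53 (adjusted p = 0.000155), so that the 2 probes differ at 24 h.

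The tRNA genes moved in both directions. *XPOT*, which exports tRNA from the nucleus, gave 0.98, 2.00, 1.05 and 1.70 in DMSO 24 h, 1.06, 1.56, 1.59 and 1.84 in G-1 1 µM 24 h, 1.02, 1.1, 0.95 and 1.18 in DMSO 72 h and 3.08, 2.03, 2.14 and 2.55 in G-1 1 µM 72 h. The groups overlapped at 24 h (0.08 ± 0.24, adjusted p = 0.83) and were apart at 72 h (1.39 ± 0.24, adjusted p = 4.36e-05). *GARS1*, the glycyl-tRNA synthetase, gave 0.90, 1.15, 0.97 and 0.65 against 0.93, 1.53, 1.05 and 1.33 at 24 h, and 0.62, 0.58, 0.55 and 0.61 against 1.71, 1.79, 1.85 and 1.59 at 72 h. Its difference was 0.29 ± 0.11 at 24 h (adjusted p = 0.0442) and 1.15 ± 0.11 at 72 h (adjusted p = 1.23e-08). The call at 24 h was lost without DMSO replicate 1, 3 or 4 or G-1 1 µM replicate 2 or 4, with differences from 0.19 to 0.38. *YARS1*, for tyrosine, differed by 0.55 ± 0.11 (adjusted p = 0.00155) and 0.88 ± 0.11 (adjusted p = 1.07e-06).

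*WARS1*, the synthetase for tryptophan, differed by 0.40 ± 0.14 (adjusted p = 0.0388) and 0.36 ± 0.14 (adjusted p = 0.0306). Its DMSO 24 h replicate 1, at 1.97, lay below the other 3, between 2.75 and 2.97, and without that array the difference at 24 h was 0.175 and uncalled. The call at 24 h was also lost without any 1 of the 4 G-1 1 µM arrays, up to 0.51. At 72 h it was lost without DMSO replicate 2 or 4 or G-1 1 µM replicate 2, with differences from 0.29 to 0.41. *SARS1*, for serine, differed by 0.16 ± 0.06 (adjusted p = 0.0354) and 0.27 ± 0.06 (adjusted p = 0.000254), and its other probes gave -0.11 (uncalled) and 0.52 at 72 h. At 24 h its call was lost without DMSO replicate 1 or 2 or G-1 1 µM replicate 1 or 3, with differences from 0.14 to 0.19. *AARS1*, for alanine, was lower at 72 h. It gave 3.33, 3.37, 3.27 and 3.45 in DMSO and 2.75, 3.33, 3.08 and 2.90 in G-1 1 µM, where replicate 2 overlapped the controls, with a difference of -0.34 ± 0.13 (adjusted p = 0.0314). This call was lost without DMSO replicate 2 or 4 or G-1 1 µM replicate 1 or 4, with differences from -0.45 to -0.25. *NARS1*, for asparagine, and *MARS1*, for methionine, were called at neither duration. Their differences at 72 h were -0.05 ± 0.08 and -0.31 ± 0.16, and a second probe of *MARS1* gave 0.13.

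Between 24 h and 72 h of G-1 1 µM, within 1 slide, 13 members rose and 5 fell, against 17.4% and 25.3% of all genes. Since DMSO was sampled at both durations, the interaction asks how far the difference from DMSO grew. It was called for 15 members, 13 of which moved up and 2 down, against 15.7% and 18.3% of all genes. *XPOT* had the largest interaction, 1.31 ± 0.34 (adjusted p = 0.00613), and was the only member called past 2-fold, against 2.28% of all genes in that direction. *GARS1* (0.85 ± 0.15), *SLC7A1* (0.83 ± 0.18), *EIF4EBP1* (0.82 ± 0.18), *MTHFD2* (0.80 ± 0.13) and *DDIT3* (0.77 ± 0.13) followed, with adjusted p of 0.000231, 0.00154, 0.0016, 0.000109 and 0.000106. *CTH*, *TRIB3*, *SESN2*, *SLC3A2*, *SLC38A2*, *PPP1R15A* and *PSAT1* had interactions from 0.44 to 0.69. Of these, *PSAT1* (0.21, adjusted p = 0.0705) and *SLC38A2* (0.36, adjusted p = 0.0675) were not called between 24 h and 72 h of G-1 1 µM itself. The other members with a called positive interaction were called higher there. *ATF3* (-0.69 ± 0.20, adjusted p = 0.0103) and *AARS1* (-0.52 ± 0.19, adjusted p = 0.0406) had negative ones. The calls of *SLC38A2* and *AARS1* were each lost when certain single arrays were left out, 9 and 10 of 16, with interactions from 0.44 to 0.68 and from -0.63 to -0.38. For *SLC38A2* these were DMSO 24 h replicate 2, every DMSO 72 h array, G-1 1 µM 24 h replicate 1 and G-1 1 µM 72 h replicates 1, 3 and 4. For *AARS1* they were DMSO 24 h replicates 1 and 2, DMSO 72 h replicates 1, 2 and 4, G-1 1 µM 24 h replicates 1, 3 and 4 and G-1 1 µM 72 h replicates 1 and 4. The second *SLC38A2* probe, given above, differed from DMSO by similar amounts at both durations. *CHAC1* (0.47 ± 0.25, adjusted p = 0.164) and *SLC7A5* (0.26 ± 0.24, adjusted p = 0.458), which led the differences from DMSO, had no called interaction.

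**Figure D4:**
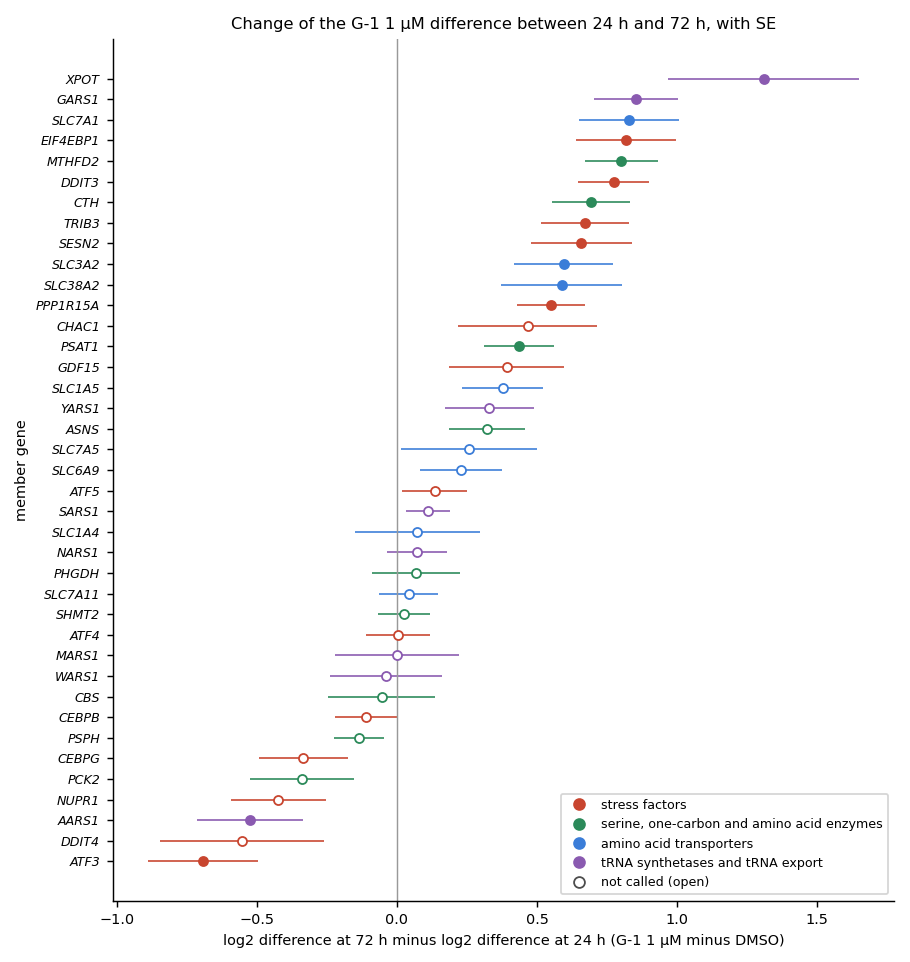
Interaction of G-1 1 µM with duration for the 39 members (x axis, log2 difference from DMSO at 72 h minus that at 24 h, with SE), coloured by class, filled where called. The value runs from -0.69 (ATF3) to 1.31 (XPOT), and ATF4 lies at 0.0043.

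G-1 1 µM was also compared with G-1 IC50 at the same duration, again across slides. At 24 h, 11 members were higher and 3 lower in G-1 1 µM, against 16.1% and 9.13% of all genes. Scaled to the 50th percentile, 7 members were called in place of 14. *ATF4* was higher by 0.39 ± 0.08 (adjusted p = 0.00179) and *CHAC1* by 0.67 ± 0.18 (adjusted p = 0.0088). The 3 lower members were *ATF3* (-0.49 ± 0.14), *MARS1* (-0.49 ± 0.16) and *CTH* (-0.30 ± 0.10). *SLC7A5* (0.32 ± 0.17, adjusted p = 0.178) and *PSAT1* (0.06 ± 0.09, adjusted p = 0.63), both called at G-1 IC50, were not called between the doses. At 72 h, 28 members were higher and 4 lower, against 33.7% and 31.1% of all genes. *CHAC1* differed by 1.70 ± 0.18 and *EIF4EBP1* by 1.59 ± 0.13, while *ATF3* differed by -1.33 ± 0.14, more than 2-fold lower. *CEBPG* (-0.62 ± 0.11), *MARS1* (-0.48 ± 0.16) and *SLC7A11* were lower as well.

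Other genes of the same pathways were counted from lists taken by function. Of 13 other cytosolic tRNA synthetases, 7 were higher and 0 lower with G-1 1 µM for 24 h, and 10 were higher and 1 lower after 72 h. Of all genes, 17.2% were higher and 12.0% lower at 24 h, and 32.7% and 32.9% at 72 h. At 72 h, *FARSB*, for phenylalanine, differed by 1.06 ± 0.09, *IARS1*, for isoleucine, by 0.72 ± 0.06, and *KARS1*, for lysine, by 0.69 ± 0.08. Of 16 tested mitochondrial synthetases, 6 were higher and 2 lower at 72 h (32.7% and 32.9% of all genes), among them *YARS2* (0.89 ± 0.12) and *NARS2* (0.73 ± 0.08). The median differences of these lists at 72 h were 0.48 and 0.04. Of 24 other enzymes of serine, folate, proline and aspartate metabolism, 12 were higher and 5 lower at 72 h, against 32.7% and 32.9% of all genes. These were led by *MTHFD1L* (1.19 ± 0.11), which works beside *MTHFD2* in mitochondria, *GLDC* (1.18 ± 0.19), which cleaves glycine, and *BCAT1* (1.16 ± 0.15), a transaminase of branched-chain amino acids. Of 13 other tested amino acid carriers, 5 were higher and 6 lower at 72 h, near the shares of all genes (32.7% and 32.9%). *SLC38A3*, a glutamine carrier, fell by 2.81 ± 0.13 on the log2 scale at 72 h, the taurine carrier *SLC6A6* fell by 1.62 ± 0.18, and *SLC7A8*, another partner of *SLC3A2*, fell by 1.20 ± 0.33.

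Upstream of *ATF4*, the list of eIF2 kinases, eIF2 and eIF2B had 5 of 17 tested genes higher and 4 lower after 72 h of G-1 1 µM, no larger shares than the 32.7% and 32.9% of all genes. *EIF2AK3* (PERK), the sensor in the endoplasmic reticulum, differed by -0.50 ± 0.21 at 24 h (adjusted p = 0.0757) and -0.49 ± 0.21 at 72 h (adjusted p = 0.0476). *EIF2AK4* (GCN2), the sensor of uncharged tRNA, differed by 0.19 ± 0.05 (adjusted p = 0.0137) and 0.37 ± 0.05 (adjusted p = 6.58e-06). *IMPACT*, an inhibitor of GCN2, differed by -1.66 ± 0.43 and -1.80 ± 0.43, *EIF2S2*, the beta subunit of eIF2, was higher by 0.79 ± 0.11 at 72 h, and *OMA1*, a protease that relays mitochondrial stress to eIF2, differed by -0.77 ± 0.11 at 72 h. These are levels of messages, and phosphorylation was not measured.

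Of 20 genes of endoplasmic reticulum stress, 0 were higher and 3 lower with G-1 1 µM for 24 h, where 17.2% and 12.0% of all genes were. The chaperone *HSPA5* (BiP) differed by -0.44 ± 0.09 at 24 h (adjusted p = 0.00136) and -0.39 ± 0.09 at 72 h (adjusted p = 0.00075). *HSP90B1*, another chaperone, differed by -0.43 ± 0.07 and -0.52 ± 0.07. *DNAJB9* was called at neither duration (-0.0014 ± 0.11 and 0.14 ± 0.11), and *HERPUD1*, of the degradation pathway, differed by 0.04 ± 0.11 (adjusted p = 0.795) and 0.37 ± 0.11 (adjusted p = 0.00437). At 72 h, 8 genes of this list were higher and 5 lower, against 32.7% and 32.9% of all genes, among them *HYOU1* (0.51 ± 0.10) and *DERL3* (-0.48 ± 0.09).

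Markers of cell identity moved at the same dose. All 7 U251 markers were lower after 72 h of G-1 1 µM, with a median difference of -0.42, led by *GFAP* (-2.75 ± 0.31), *S100B* (-2.0 ± 0.20) and *SOX2* (-0.87 ± 0.09). At 24 h only *SOX2* was called (-0.40 ± 0.09). Of 10 markers of other cells, 4 were tested. The immune gene *CD14* was higher at 72 h (1.19 ± 0.11), the endothelial gene *VWF* was lower (-1.74 ± 0.15), and the neuronal gene *RBFOX3* was lower (-1.61 ± 0.26). *CDH5*, also endothelial, was well above background on 3 DMSO 24 h arrays and on 0 G-1 1 µM 72 h arrays. Since spots well above background were fewer on every G-1 1 µM array than on any other, these counts alone do not show a change in level. The defining markers *PTPRC*, *CD3E*, *PECAM1*, *EPCAM* and *CDH1* and the neuronal gene *SYP* were not well above background on any of the 24 arrays. The part of these shifts in the member values was not tested.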

How the data were processed

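RNA of U251 cells was hybridised to 24 1-colour Agilent arrays, 4 independent replicates in each of 6 groups. For each array the authors deposited Feature Extraction intensity values per spot, background-subtracted and not normalized between arrays, with flags of 0 or 1 as further scores of spot quality. The authors also deposited log2 values per probe, shifted to the 75th percentile and centred per probe, which differed from the values used here by a median of 0.016 and at most 0.081 after the same centring. Its column medians ran from -0.349 to 0.557, and only its scale and centring were inferred from the values. The file headers name Feature Extraction 12.1.1.1, and the submitters' processing notes 10.7.3.1.

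Outlier spots were left out, spots of 1 probe were averaged on the log2 scale, and the 75th percentile was subtracted. Of 58118 probes with a value everywhere, the 22970 that passed the background flag in all 4 replicates of some group were tested. Accessions were matched to the RefSeq gene table, which named 34981 of 58201 probes. Spots well above background made up 41.1% to 44.5% per array in the first session and 38.0% to 40.7% in the second, and the number of arrays limits the precision. One model of 6 group means was fitted with limma 3.58.1 in R 4.3.3, with Benjamini-Hochberg adjustment over all tested probes and calls at an adjusted p under 0.05. The script was tested on simulated data. Promoter windows were searched in Python 3.11.15.

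The members and lists were chosen with earlier results of these data known. All members are named, with at most 3 genes of each other list, those with the largest called difference at G-1 1 µM 72 h, and *EIF2AK3*, *EIF2AK4*, *HSPA5*, *DNAJB9* and *HERPUD1* in any case. One gene that this rule names is not reported here. The markers of cell types are named for their detection, and the 5 promoters were chosen after the values were seen. Alternatives were other scalings, filters, tools and blocks and leaving out each array. Replicate numbers were checked for pairing by the correlation of deviations from group means, which was over 0.1 in all 4 pairs only between G-1 1 µM 24 h and each of the other groups of 24 h.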

Additional observations from a re-analysis of the deposited data

Results flagged for a closer look

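In 15 of 234 groups of 4 arrays (39 members in 6 groups), 1 array lay far from the other 3, where the gap to the nearest array divided by the range of the group passed Dixon's critical value. That is 6.41%, and chance gives about 5%. At most 2 of these fell on any 1 array. *ATF5* had 2 such groups, with DMSO 72 h replicate 1 low (ratio 0.868) and G-1 1 µM 72 h replicate 3 high (0.867). *SLC38A2* also had 2, with DMSO 24 h replicate 2 high (0.838) and G-1 1 µM 24 h replicate 1 low (0.902). In G-1 IC50 24 h, *EIF4EBP1* was low in replicate 4 (0.835) and *GDF15* in replicate 1 (0.844), while *SARS1* (0.931) and *SHMT2* (0.917) were high in replicate 3. In G-1 IC50 72 h, *DDIT3* was high (0.835) and *MARS1* low (0.954) in replicate 2, *NUPR1* was low (0.853) and *SLC1A4* high (0.858) in replicate 3, and *SLC6A9* was low in replicate 4 (0.84). *CEBPB* was high in DMSO 24 h replicate 4 (0.951), and *SLC7A1* was low in G-1 1 µM 24 h replicate 4 (0.956), at 1.25 against 1.42 to 1.43.

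The difference from DMSO at G-1 1 µM differed between 24 h and 72 h for 15 members by the interaction term, on the log2 scale. It grew for *XPOT* (1.31), *GARS1* (0.85), *SLC7A1* (0.83), *EIF4EBP1* (0.82), *MTHFD2* (0.8), *DDIT3* (0.77), *CTH* (0.69), *TRIB3* (0.67), *SESN2* (0.66), *SLC38A2* (0.59), *SLC3A2* (0.59), *PPP1R15A* (0.55) and *PSAT1* (0.44). It moved down for *ATF3* (-0.69) and *AARS1* (-0.52). The calls of *SLC38A2* and *AARS1* were each lost when certain single arrays were left out. The second *SLC38A2* probe, given above, differed from DMSO by similar amounts at both durations.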

How the results depend on the processing

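No called value of a member's brightest probe changed sign under the alternatives run here; the second *ASNS* probe, of opposite sign at 72 h, is given above. Of 76 called values of single members, 73 kept their call with quantile normalization, 64 with the 50th percentile, 69 with normexp and quantile normalization, 67 without the filter on dim probes and 75 with the deposited log2 table. With a 2-fold change required as well, 1 member was called after 24 h of G-1 IC50, 3 and 14 at the 2 durations between G-1 1 µM and DMSO, 0 and 13 between the doses, 0 for DMSO 72 h against 24 h, 1 for G-1 1 µM 72 h against 24 h and 1 for the interaction. The methods' t-test with that fold gave the same counts unadjusted where it was run (1, 3, 14, 0, 13, 0 and 1) and, after Benjamini-Hochberg, 0, 3, 14, 0, 13, 0 and 1. For G-1 IC50 against DMSO at 24 h, the arrays of the compared groups alone, slide 1 alone and slide 2 alone gave 0 calls each, and so they did for DMSO 72 h against 24 h (0 each). These fits hold fewer arrays. At 72 h of G-1 IC50, quantile normalization, a filter that asked for detection on all 24 arrays and an intensity trend each called 1 member, *SLC7A11*. For DMSO 72 h against 24 h, 2 members were called with quantile normalization, normexp and quantile normalization, an intensity trend or slide as a block, in each case *ASNS* beside *GDF15*. With the 50th percentile, 7 members were called between G-1 1 µM and G-1 IC50 at 24 h in place of 14, where the median of all genes moved to -0.12. Between G-1 1 µM and DMSO at 24 h, 18 were called in place of 27, where that median moved to -0.042. The cause was not tested. Without the filter on dim probes the median of all genes rose to 0.17 and 0.21 in the comparisons of G-1 1 µM with DMSO, with 26 and 30 members called. Scaled to the median of the genes in no list, chosen after seeing the data, 26 and 31 members were called.

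Leaving out 1 array at a time gave, at 24 h and 72 h, 3 to 3 and 0 to 0 calls for G-1 IC50, 20 to 25 and 29 to 31 for G-1 1 µM against DMSO, 10 to 15 and 31 to 32 against G-1 IC50, 1 to 3 for DMSO 72 h against 24 h, 15 to 18 for G-1 1 µM 72 h against 24 h, 13 to 16 for the interaction of G-1 1 µM and 0 to 0 for that of G-1 IC50. Of 728 refitted member values, 61 lost their call. Signal over background limits *SLC7A3*, *FGF21*, *ALDH1L2* and *STC2*, which have no test.

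Replicate numbers came with correlated deviations in some groups only. Deviations of same-numbered arrays from their group means correlated between -0.325 and 0.53 (60 pairs, median 0.116), and 15 of 24 arrays correlated best with their own number. Every same-numbered pair was over 0.1 in 2 of 15 pairs of groups, G-1 1 µM 24 h with DMSO 24 h (0.166 to 0.281) and with G-1 IC50 24 h (0.202 to 0.308), and not in the others. With the replicate number as a block, none of the 76 called values lost its call, and at 24 h and 72 h 4 and 2 members (*SLC7A11* and *SLC7A5*) were called for G-1 IC50, 27 and 31 at G-1 1 µM, 17 and 33 between the doses, 3 for DMSO 72 h against 24 h, 19 for G-1 1 µM 72 h against 24 h, and 18 and 0 for the interactions.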
